A study of Mus musculus with 6 samples.

Results

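The immediate early genes described here are 10 genes taken by symbol from a fixed list: Fos, Fosb, Jun, Junb, Jund, Egr1, Ier2, Ier3, Dusp1 and Myc. All 10 were found among the 14005 genes of the table, and all 10 passed the filter on low values (a mean of at least 10 normalized counts). The study sequenced polyA-selected RNA of primary mouse macrophages grown from bone marrow, in 2 groups of 3 libraries. One group was wild-type C57BL/6J. The other, called Txn1 KO, carried the allele Txn1tm1.1Ees/J of Txn1, the gene of thioredoxin-1, together with B6.129P2-Lyz2tm1(cre)lfo/J, which puts Cre under the myeloid gene Lyz2. Both groups were pooled male and female; age, stimulus and the number of animals are not given in the labels. The labels do not say whether replicates came from separate cultures, and p-values thus cover only how far these libraries spread, possibly for technical reasons.

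Immediate early genes are transcribed within minutes of a stimulus, without new protein synthesis, from promoters that are already poised. Fos and Jun proteins pair to form AP-1, Egr1 and Myc bind their own DNA elements, and Dusp1 encodes a phosphatase that switches off the MAP kinases that started the response. Their RNAs decay fast, in part through AU-rich elements in the 3′ UTR. The link to thioredoxin-1 is biochemical: DNA binding by AP-1 depends on a conserved cysteine that the factor Apex1 (Ref-1) keeps reduced, and thioredoxin-1 in turn reduces Apex1.

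Values are read counts divided by 1 size factor per library (normalized counts). The listed genes held 22508616 to 38726953 reads per library. The macrophage markers Csf1r (50502 ± 1285 normalized counts in wild type, 52094 ± 495 in libraries labelled Txn1 KO) and Adgre1 (17728 ± 709 and 16942 ± 493; SD, n = 3 each) were high in both groups. Over the whole list of macrophage markers (14 genes, with Itgam under 2 identifiers), 4 of 15 rose and 7 fell. Marco, Mertk and Itgam were among those that rose, and Fcgr1, Cd14, C1qa and Mrc1 among those that fell. Lyz2, the gene that carries Cre here, is also counted among those that fell. Of all genes tested 11.5% rose and 9.97% fell, which is the background for this and the other marker counts below. Lyz2 fell to 3118 ± 1281 from 364408 ± 3550 normalized counts (limma's adjusted p = 1.94e-13). Txn1 had 12580 ± 532 and 12349 ± 367 (limma's adjusted p = 0.686); this whole-gene sum was not lower, and reads outside the deleted part, which the labels do not name, cannot show a deletion. Wild-type replicate 1 and Txn1 KO library 3 held transcripts of the liver gene Alb (643 and 580.0 normalized counts, at most 0.838 elsewhere), so a call that changes without both is given both ways. This touched the calls of Ier3 among the 10 and, of other named genes, Batf3, Elk3, Pa2g4, Nab2, Fosl2 and Hspa1b (lost, adjusted p = 0.063 to 0.38) and Dusp2 and Ier5 (gained, 0.0487 and 0.0316). The summed level of 10 fibroblast and stromal markers was 2547 to 2862 in wild type and 1196 to 2084 in libraries labelled Txn1 KO, and 7 of these 10 fell. Dendritic cell markers summed to 3623 to 3944 and 5531 to 6247, and 2 of 6 rose (Itgax and Ccr7), while the defining Zbtb46, Flt3 and Xcr1 had means under 17 in both groups. Of 6 tested neutrophil markers 1 rose and 2 fell (median log2 change -0.35), with sums of 2865 to 2982 and 3099.8 to 3226. These sums are mostly Csf3r, which had 2207 to 3435 reads per library, while S100a8, the next, had 105 to 173. All 4 tested Y-linked genes fell, and Xist rose by 0.29 (log2; limma's adjusted p = 0.0129), a call lost without wild-type replicate 3 (0.0831) or both libraries with liver transcripts (0.14). Among 4 tested endothelial markers 1 rose and 1 fell (median log2 change 0.57). The part of these differences in the results below was not tested. Erythroid markers (0 of 6 among the tested genes) and T and NK cell markers (1 of 8, Cd4) were nearly all outside the tested genes.

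Of the 10 genes, 5 passed the test between the groups (limma, Benjamini-Hochberg adjusted p under 0.05 over all 13977 genes tested), against 21.5% of all genes tested. Dusp1, Ier3 and Jund rose in libraries labelled Txn1 KO (11.5% of all genes rose), and Junb and Ier2 fell (9.97% of all genes fell). Fos, Fosb, Jun, Egr1 and Myc did not pass. In the authors' deposited table the same 5 genes are called, against 19.2% of genes there. Among genes with a mean of at least 100 normalized counts, as 8 of the 10 have, 26.2% were called. The median log2 change of the 10 was 0.07 and that of all genes 0.00. Fewer cells of a type and less RNA per cell cannot be told apart in these bulk samples. Dusp1 alone kept its call when the test's prior variance was not fitted as a trend on expression level.

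**Figure D1:**
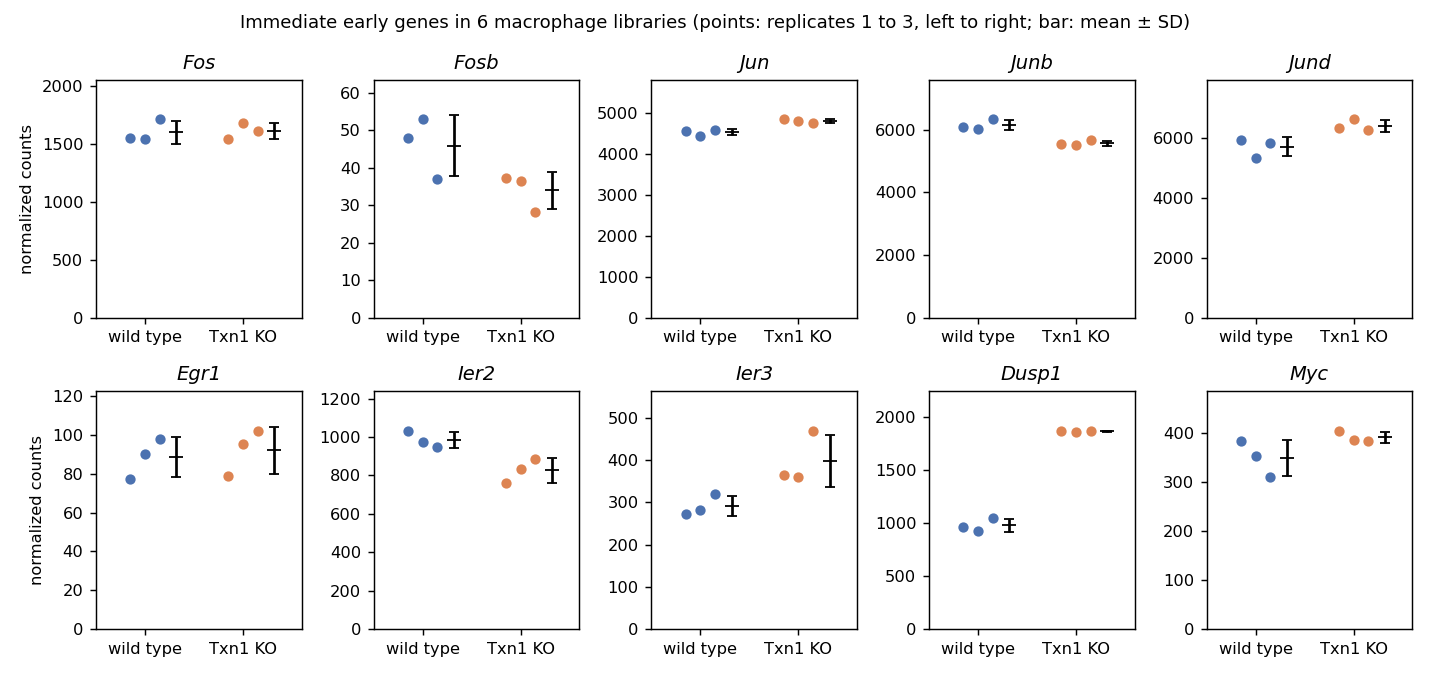
Normalized counts (vertical axis, from 0, one scale per gene) of the 10 genes in each of 3 wild-type (blue) and 3 Txn1 KO (orange) libraries, with the mean ± SD of each group in black. Dusp1 sits between 925 and 1049 in wild type and between 1858 and 1869 in libraries labelled Txn1 KO, while the points of Fos overlap.

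The largest difference was in Dusp1 (ENSMUSG00000024190, chromosome 17, 26505590 to 26562128, minus strand, GRCm38), the nuclear phosphatase that inactivates p38 and JNK. It had 957, 925 and 1049 normalized counts in the wild-type libraries 1 to 3 and 1868, 1858 and 1869 in the Txn1 KO libraries 1 to 3. The groups were far apart. The spread in the second, 0.321% of its mean, was below the 2.46% that read counting alone gives, so it is no measure of precision. The means were 977 ± 64.5 and 1865 ± 5.99 normalized counts (SD over 3 libraries each), a 1.91-fold rise. On the log2(normalized count + 1) scale this was 0.93 ± 0.053 (SE), with a 95% interval of 0.82 to 1.05 (limma's adjusted p = 8.1e-10). Leaving out each library in turn gave 0.90 to 0.99.

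The stretch of 250 bases before the Dusp1 start is shown with that of Fos and of Junb. These are 3 of the 4 genes with a match to the short element TGACG, and Fosb is the other. Dusp1 rose, Junb fell and Fos overlapped, and a part of the element in this was not tested. Capitals mark matches, on either strand, to the cyclic AMP response element (CRE, TGACGTCA), to its core TGACG, which also lies within the whole element, and to the TATA box (TATAAA). The sequences are RefSeq's, build GRCm38.p6, written 5′ to 3′ on the strand of the gene. RefSeq's starts can differ from those of the GENCODE gene spans given here. For Junb a TATA box match lies at bases 1 to 6 after the RefSeq start, beyond the stretch shown. The GENCODE span of Junb has its first base on the minus strand at 84978718, outside that stretch. The Dusp1 stretch lies inside its GENCODE span, whose first base on the minus strand is 26562128.
Dusp1, chr17:26508473-26508722, minus strand: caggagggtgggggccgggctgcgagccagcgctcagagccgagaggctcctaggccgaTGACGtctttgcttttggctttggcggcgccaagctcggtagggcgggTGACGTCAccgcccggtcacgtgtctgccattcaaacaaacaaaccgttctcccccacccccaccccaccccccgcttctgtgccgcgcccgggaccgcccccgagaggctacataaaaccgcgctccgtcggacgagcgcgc
Fos, chr12:85473640-85473889, plus strand: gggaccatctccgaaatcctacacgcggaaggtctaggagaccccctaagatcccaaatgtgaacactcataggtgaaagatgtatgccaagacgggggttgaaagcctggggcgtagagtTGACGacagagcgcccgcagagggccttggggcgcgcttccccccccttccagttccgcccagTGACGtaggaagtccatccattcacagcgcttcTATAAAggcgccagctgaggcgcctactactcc
Junb, chr8:84978749-84978998, minus strand: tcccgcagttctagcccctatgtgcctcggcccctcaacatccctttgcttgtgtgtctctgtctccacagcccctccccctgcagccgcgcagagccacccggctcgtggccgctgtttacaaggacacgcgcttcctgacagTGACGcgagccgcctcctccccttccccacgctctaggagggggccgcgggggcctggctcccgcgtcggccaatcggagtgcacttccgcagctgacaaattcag

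Promoter sequences, from 250 bases before to 50 after the RefSeq start, were matched for 7 of the 10 genes. Egr1, Ier2 and Myc had no such sequence. For Jund, 1 of the 7, the 250 bases end at 70697738 on chromosome 8, upstream of the GENCODE start at 70698949. The window of Jund may thus miss the promoter of the gene measured here. The whole CRE occurred in 1 of these 7, Dusp1, at bases -143 to -136 from the start, and in 1.79% of the 32851 promoters of the same length. The core TGACG occurred in 4 of 7 (Fos, Fosb, Junb and Dusp1) and in 20.8% of all promoters. The AP-1 site TGANTCA (7.81% of all) and the CArG box bound by SRF (1.63% of all) matched 0 of 7 in this window. Of the 7, only Dusp1 held the core of the antioxidant response element TGANNNNGC, which was in 41.3% of all promoters, and the E-box CACGTG of Myc and its relatives, in 7.15%. These matches describe letters and were not linked to binding by any measurement here.

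The 3′ UTRs were searched for AU-rich decay signals. In the coding transcript with the longest reading frame (GENCODE M21), the 3′ UTR held a median of 3.68 copies of ATTTA per kb over the 10 genes and 1.196 per kb over the 12080 tested genes with such a transcript. The 9-base AU-rich element TTATTTATT stood in 2 of the 10, at 2 places in Dusp1 and 1 in Fos, and in 6.96% of those 12080 genes. All 3 sites are shown with the 9 bases in capitals (29 bases, GRCm38). Dusp1 rose and Fos did not pass the test, and a part of the element in this was not tested.
Dusp1, chr17:26506159-26506187, minus strand: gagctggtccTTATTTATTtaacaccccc
Dusp1, chr17:26505870-26505898, minus strand: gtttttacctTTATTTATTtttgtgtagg
Fos, chr12:85477103-85477131, plus strand: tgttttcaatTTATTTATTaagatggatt

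Ier3 had 5 copies of ATTTA, Dusp1, Fos and Jun 4 each, and Ier2 none. Gene structure was compact: the median was 2 exons for the 10 against 9 for all, and Jun, Junb, Jund and Ier2 had a single exon, as 2.21% of all genes did.

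Levels per kb of exon placed the Jun genes on top. Jund stood at 3430 ± 196 normalized counts per kb in wild type, Junb at 2670 ± 71.4 and Jun at 1421 ± 23.6 (SD, n = 3 each). At the exon lengths used, these neighbours did not overlap. Fos followed at 679 ± 41.5 and Ier2 at 648 ± 28.5, and the ranges of these neighbours overlapped (654 to 727 and 623 to 679). Dusp1 at 295 ± 19.5 and Ier3 at 258 ± 21.9 overlapped too (279 to 317 and 241 to 282). Myc stood at 129 ± 13.3, Egr1 at 19.8 ± 2.32 and Fosb, the lowest, at 7.35 ± 1.31. Dusp1 reached, in libraries labelled Txn1 KO, 563 ± 1.81 per kb, within the spread of Ier2 at 543 ± 42.9. The exons of Dusp1 were taken as 3311 bases, while its coding transcript has 1990. For Ier2 (1522) and Ier3 (1131) both lengths are the same. The place of Dusp1 beside Ier2 and Ier3 thus depends on the annotation. So do the places of Junb beside Jund and of Fos beside Ier2. The exons of Junb were taken as 2301 bases and those of Fos as 2352, while their coding transcripts have 1809 and 2108. Jund has 1668 by both. By mean level per kb, Jund lay at the 97.2nd percentile of the tested genes, Myc at the 52.6th and Fosb at the 7.80th.

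**Figure D2:**
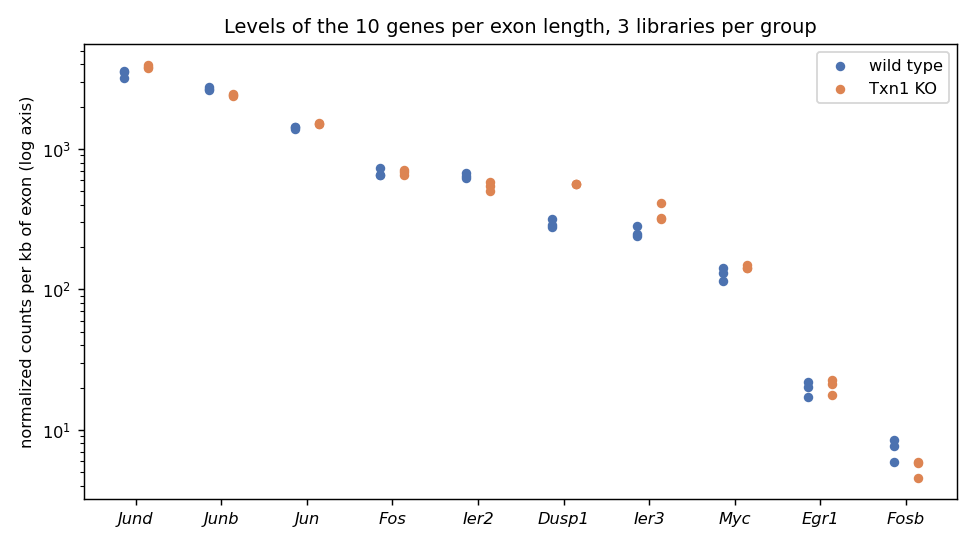
Normalized counts per kb of exon (log axis) of the 10 genes, ordered by the wild-type mean, with 1 point per library and 3 libraries per group. The genes run from Jund (3430 per kb in wild type) to Fosb (7.35), and Dusp1 moves from 295 to 563.

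Among the Jun genes, Junb and Jund changed in opposite directions. Junb (ENSMUSG00000052837, chromosome 8, 84974484 to 84978718, minus strand), an AP-1 subunit that in many settings restrains Jun, had 6096, 6009 and 6327 normalized counts in wild type. The libraries labelled Txn1 KO had 5554, 5499.9 and 5658, all below wild type. Its log2 change was -0.14 ± 0.035 (SE; limma's adjusted p = 0.00725), a level of 90.7% of wild type, and the call was lost without wild-type replicate 3 (-0.12, adjusted p = 0.0593). An exon of Prdx2 on the other strand covers 7.52% of the exonic bases of Junb, and Prdx2, a peroxiredoxin gene, had a log2 difference of -0.07 (limma's adjusted p = 0.151). Whether reads were counted by strand is not known here.

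Jund (ENSMUSG00000071076, chromosome 8, 70698949 to 70700616, plus strand), the most constantly expressed Jun gene in many cell types, had 5959, 5349 and 5858 normalized counts in wild type. Libraries labelled Txn1 KO had 6338, 6633 and 6266, all above wild type. The log2 change was 0.17 ± 0.042 (SE; limma's adjusted p = 0.00884), a 1.12-fold rise. It lost its call without wild-type replicate 2 (0.12, adjusted p = 0.0525) or Txn1 KO library 2 (0.14, adjusted p = 0.0544). The antisense gene Gm11175, not analysed here, covers 52.6% of the exonic bases of Jund, so its reads cannot be told apart where counting ignores strand.

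Jun itself (ENSMUSG00000052684, chromosome 4, 95049034 to 95052222, minus strand), the subunit that JNK phosphorylates, had 4557, 4447 and 4591 normalized counts in wild type, against 4848, 4800.4 and 4760.1 in the other group. The 3 libraries labelled Txn1 KO were all above wild type. Groups that did not overlap were seen for 7 of the 10 genes and for 36.2% of all genes tested. The log2 difference of 0.08 ± 0.035 (SE) did not pass (limma's adjusted p = 0.0995), and its 95% interval ran from 101% to 111% of the wild-type level. The exons of Jun share 7.28% of their bases with the antisense gene Junos, which had at most 35.7 normalized counts in any library.

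The Jun family as a whole, summed per kb, was 7522 ± 269 normalized counts per kb in wild type and 7771 ± 88.2 in libraries labelled Txn1 KO. Within it the share of Junb was 34.6%, 36.2% and 35.7% in wild type, against 31.2%, 30.4% and 31.9% in the other group. The ratio of Jund to Junb per kb was 1.28 ± 0.0606 and 1.59 ± 0.0691. The sum, the share and the ratio did not overlap between the groups. For the sum the margin was narrow, with at most 7701 in wild type and at least 7708 in libraries labelled Txn1 KO. The sum, the share and the ratio all rest on 2301 exonic bases for Junb, while its coding transcript has 1809. The exact permutation test (two-sided) gave p = 0.1 for each, the smallest that 3 against 3 allows.

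**Figure D3:**
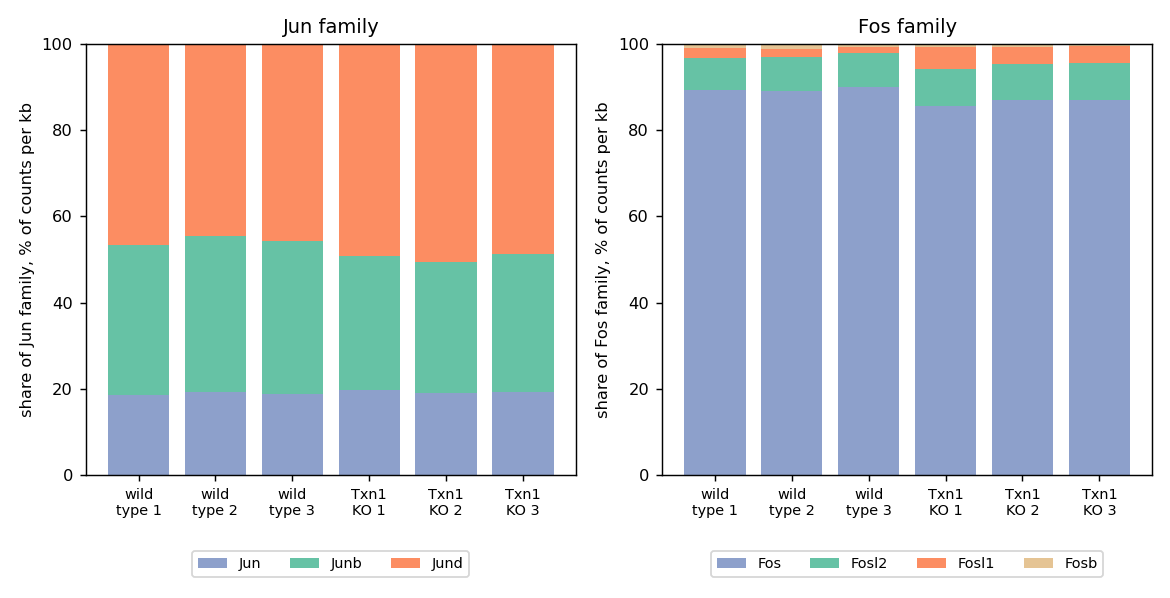
Share of each gene (vertical axis, % of normalized counts per kb) within the Jun family and within the Fos family, 1 bar per library. The Junb segment is 34.6% to 36.2% in wild type and 30.4% to 31.9% in libraries labelled Txn1 KO, and the Fosl1 segment is wider in all 3 of the latter.

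Of the Fos genes, Fos (ENSMUSG00000021250, chromosome 12, 85473890 to 85477273, plus strand), the archetype of the class, was nearly level. It had 1546, 1537 and 1710.5 normalized counts in wild type, against 1539, 1675 and 1611 in libraries labelled Txn1 KO. The ranges overlapped almost fully. The log2 difference was 0.01 ± 0.052 (SE; limma's adjusted p = 0.921), and the 95% interval ran from 93.3% to 109% of the wild-type level. The sign turned in 3 of the 6 fits that left out a single library.

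Fosb (ENSMUSG00000003545, chromosome 7, 19302696 to 19310051, minus strand), the inducible paralog of Fos, was low, with 21 to 68 reads per library. Its normalized counts were 47.9, 52.8 and 36.9 in wild type, against 37.1, 36.4 and 28.3 in the other group, with 1 library of each group within the other's range. A log2 difference of -0.42 ± 0.25 (SE) did not pass (limma's adjusted p = 0.262), and the 95% interval, 52.1% to 107% of wild type, was wide at this depth. Fosl1, the FRA-1 gene and outside the 10, rose 2.37-fold. It had 33.6, 29.5 and 23.5 normalized counts in wild type, against 76.5, 67.0 and 61.9 in libraries labelled Txn1 KO (log2 1.23 ± 0.23, SE; limma's adjusted p = 0.0008). Its share of the Fos family per kb was 1.89% ± 0.419 in wild type, against 4.27% ± 0.569 in the other group (exact permutation p = 0.1, the smallest possible). Fosl2, the FRA-2 gene, rose by 0.21 (log2; limma's adjusted p = 0.0477), and 5 of the 6 fits that left out 1 library lost that call (highest adjusted p = 0.188, without wild-type replicate 1).

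Egr1 (ENSMUSG00000038418, chromosome 18, 34859823 to 34864984, plus strand), a zinc finger factor of growth and monocyte differentiation, had 77.4, 90.1 and 98.1 normalized counts in wild type. The libraries labelled Txn1 KO had 78.8, 95.7 and 102, so the ranges overlapped. The log2 difference was 0.06 ± 0.17 (SE; limma's adjusted p = 0.862), with a 95% interval of 81.4% to 133% of wild type, and it was -0.11 without both libraries with liver transcripts. Its relative Egr2, which acts in alternatively activated macrophages, rose from 1207 ± 58.0 to 1746 ± 76.7 normalized counts (log2 0.53 ± 0.052, SE; limma's adjusted p = 7.7e-07). Egr3 had 16.8 ± 11.2 and 17.7 ± 9.41 normalized counts. Of 5 tested genes of the Egr family and its corepressors 2 rose and 0 fell (limma; 0 lower at an unadjusted p under 0.05 and 0 by edgeR), beside 11.5% and 9.97% of all genes. The second was Nab2, a corepressor induced by EGR proteins (log2 0.12, limma's adjusted p = 0.0496), whose call was lost in 5 of 6 fits without 1 library (highest adjusted p = 0.142, without wild-type replicate 3).

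Myc (ENSMUSG00000022346, chromosome 15, 61985391 to 61990374, plus strand), the factor of growth and ribosome production, had 383.1, 354 and 311 normalized counts in wild type. The 3 libraries labelled Txn1 KO had 405, 385 and 383.6. The groups did not overlap, by less than 1 read, since the highest wild-type value is next to the lowest of the other group. The log2 difference was 0.17 ± 0.088 (SE; limma's adjusted p = 0.206), with a 95% interval of 98.7% to 128% of wild type. In its network 1 of 11 tested genes was called (9.09%, beside 21.5% of all genes): Mxd4, which encodes an antagonist that competes for Max, fell by 0.15 (log2; limma's adjusted p = 0.017). That call was lost without wild-type replicate 3 (adjusted p = 0.103) and Txn1 KO library 1 or 2. Max, the obligate partner of Myc, had a log2 difference of -0.07 (limma's adjusted p = 0.229). Among 25 known MYC targets 2 rose and 6 fell, 32% called beside 21.5% of all genes and 26.2% of those with a mean of at least 100 (median log2 0.00). Ccnd2, cyclin D2, fell from 195 ± 25.3 to 65.5 ± 4.70 normalized counts (log2 -1.55, limma's adjusted p = 5.76e-07). Odc1, which starts polyamine synthesis, fell by 0.64 (log2), Cad of pyrimidine synthesis by 0.32 and Ldha of lactate production by 0.17. Gnl3, a nucleolar protein gene, rose by 0.33. Pa2g4 fell by 0.13, a call lost without wild-type replicate 1 (adjusted p = 0.0632), wild-type replicate 3 or Txn1 KO library 2.

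Ier2 and Ier3 share a name but not a sequence family, and changed in opposite directions. Ier2 (ENSMUSG00000053560, chromosome 8, 84661331 to 84662852, minus strand), which encodes a nuclear protein, had 1033, 975 and 948 normalized counts in wild type. The libraries labelled Txn1 KO had 758, 834 and 888, all lower. It fell by 0.26 (log2; SE 0.064, limma's adjusted p = 0.00811) to 83.9% of the wild-type level. Without Txn1 KO library 1, the lowest, the change was -0.19 and the call was lost (adjusted p = 0.0518).

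Ier3 (ENSMUSG00000003541, chromosome 17, 35821684 to 35822923, plus strand), a target of NF-kB that affects cell survival, had 273, 281 and 319 normalized counts in wild type. The libraries labelled Txn1 KO had 365, 361 and 469.7, all higher, the last one well above the other two. The rise was 1.37-fold, with a log2 change of 0.44 ± 0.11 (SE; limma's adjusted p = 0.00553). The high library, Txn1 KO library 3, is 1 of the 2 with liver transcripts: without both, the log2 change was 0.28 and did not pass (adjusted p = 0.12), and without that library alone it was 0.32 (adjusted p = 0.0242). Of their named relatives, Ier5l rose by 0.33 (log2; limma's adjusted p = 0.00456). Ier5 had a log2 difference of 0.14 (limma's adjusted p = 0.0842), which passed at 0.20 without Txn1 KO library 3 (adjusted p = 0.00746).

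**Figure D4:**
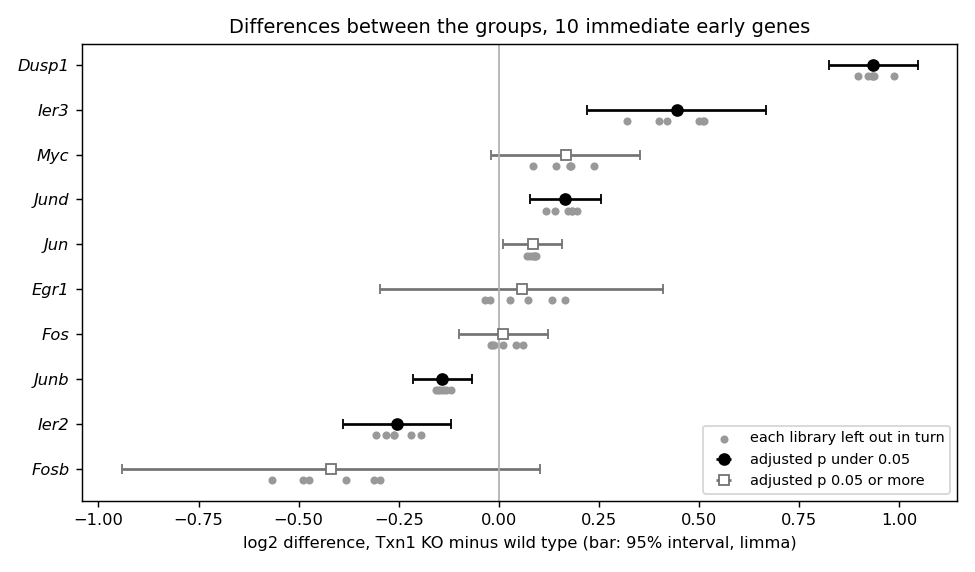
Log2 difference (Txn1 KO minus wild type, horizontal axis) with its 95% interval for the 10 genes, filled where the adjusted p was under 0.05, and in grey the values with each library left out in turn. Dusp1 lies at 0.93 and apart from the others, whose values run from -0.42 to 0.44.

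The wider class of immediate early genes was described from a list of 50 others, of which all 50 were tested. Of these 18 rose and 6 fell, with a median log2 change of 0.13. That is 48.0% called, beside 21.5% of all genes and 26.2% of those with a mean of at least 100. Rhob, a small GTPase of endosomes, rose from 5164 ± 68.7 to 7873 ± 262 normalized counts (log2 0.61, limma's adjusted p = 1.29e-09). Cebpb, a bZIP factor of myeloid gene induction, had 1248, 965 and 1178 normalized counts in wild type, against 1915, 1881 and 1887 in libraries labelled Txn1 KO (log2 0.75, limma's adjusted p = 5.53e-07). Cxcl2, a neutrophil chemokine, rose by 1.56 (log2) and Btg1, an antiproliferative gene, by 0.35. Ccl4, a chemokine for monocytes and T cells, fell from 914 ± 35.3 to 512 ± 52.2 normalized counts (log2 -0.84, limma's adjusted p = 2.15e-07).

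**Figure D5:**
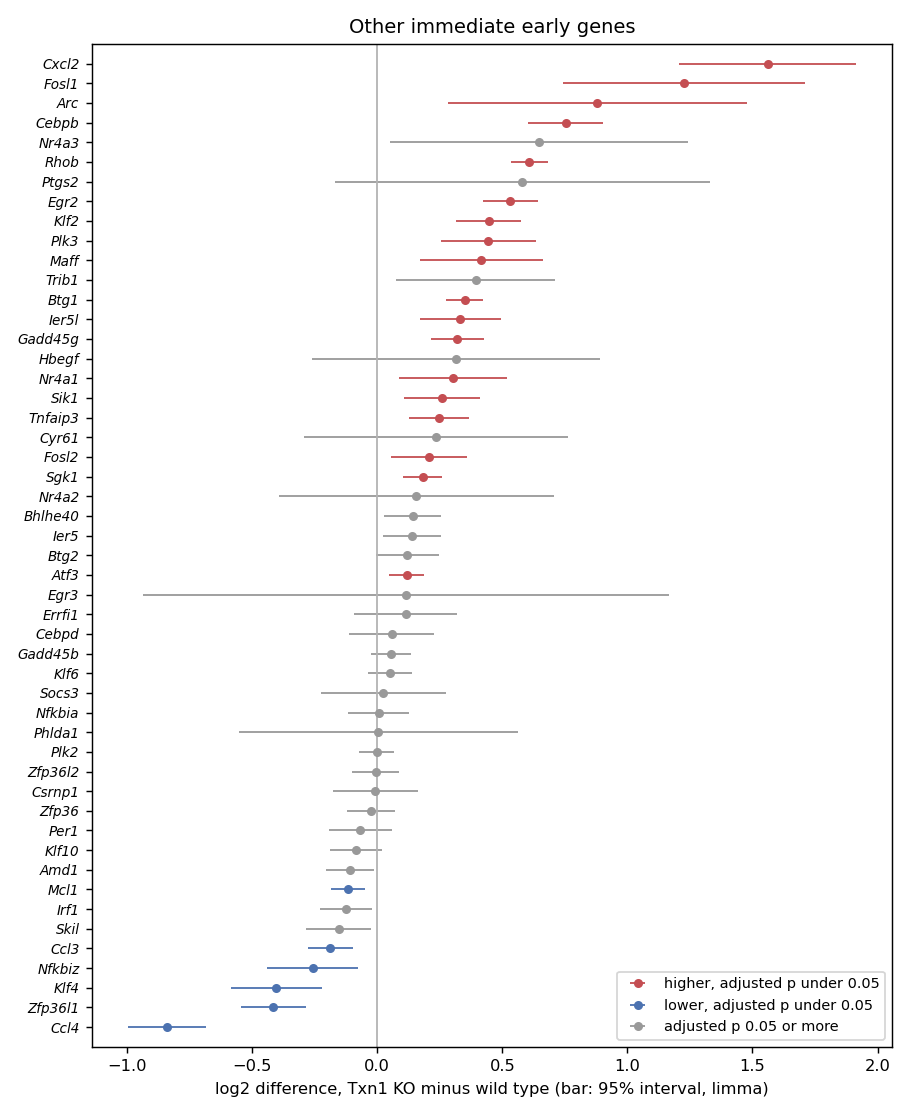
Log2 difference (Txn1 KO minus wild type, horizontal axis) with its 95% interval for 50 further immediate early genes in order of the difference, red where higher and blue where lower at an adjusted p under 0.05. Cxcl2 at 1.56 and Fosl1 at 1.23 lead the 18 that rose, and Ccl4 at -0.84 leads the 6 that fell.

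Dual specificity phosphatases include the MAP kinase phosphatases, such as Dusp1, and atypical members, such as Dusp18 and Dusp22, that lack their kinase-binding part. Of 14 tested, 4 rose (Dusp1 among them) and 1 fell. This is 35.7% called, beside 21.5% of all genes and 26.2% of those with a mean of at least 100. Dusp5, a nuclear phosphatase for ERK, rose from 93.1 ± 13.2 to 172 ± 11.2 normalized counts (log2 0.88 ± 0.14, SE; limma's adjusted p = 0.000192). Dusp4, also nuclear, rose from 1676 ± 25.2 to 2042 ± 91.0 (log2 0.28) and Dusp18 rose by 0.56. Dusp22 fell by 0.20 (limma's adjusted p = 0.027), a call lost without wild-type replicate 1, wild-type replicate 3 (adjusted p = 0.132), Txn1 KO library 1 or Txn1 KO library 2. Dusp6, the cytoplasmic phosphatase for ERK, had a log2 difference of 0.07 and Dusp2 one of 0.29 (limma's adjusted p = 0.0644), which passed without Txn1 KO library 3 (0.39, adjusted p = 0.0135).

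Of 28 kinases and factors upstream, 3 rose and 1 fell, 14.3% called beside 21.5% of all genes, with a median log2 change of 0.00. Mapk9, which encodes JNK2, rose by 0.26 (log2; limma's adjusted p = 0.000686). Mkl2, a coactivator of SRF, rose by 0.28 and Atf1, a CREB relative, by 0.18. Elk3, an ETS partner of SRF, fell by 0.19 (limma's adjusted p = 0.0172), a call lost without wild-type replicate 1 (adjusted p = 0.0661) or Txn1 KO library 3 (adjusted p = 0.0686). Srf itself had a log2 difference of -0.03 (limma's adjusted p = 0.695).

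In the AP-1 and related bZIP list, which holds the 5 Fos and Jun genes, 8 of 19 rose and 2 fell (median log2 0.01). This is 52.6% called, beside 21.5% of all genes and 26.2% of those with a mean of at least 100. Maf, a bZIP factor of macrophages, fell from 6069 ± 229 to 4547 ± 230 normalized counts (log2 -0.42, limma's adjusted p = 1.23e-06). Mafg, a small partner of NRF2, rose by 0.33. Batf3, a factor of dendritic cells, rose by 0.66. This call was lost without both libraries with liver transcripts (0.50, adjusted p = 0.0939). Atf3, a stress-induced repressor, rose by 0.12 (limma's adjusted p = 0.0162), a call lost without wild-type replicate 2 (adjusted p = 0.0561) or Txn1 KO library 1 (adjusted p = 0.0999).

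Genes known as AP-1 targets went both ways, with 7 of 14 tested higher and 5 lower (median log2 0.09). This is 85.7% called, beside 21.5% of all genes and 26.2% of those with a mean of at least 100. Mmp12, macrophage elastase, rose from 43422 ± 763 to 76649 ± 1572 normalized counts (log2 0.82, limma's adjusted p = 9.12e-12), and the collagenase gene Mmp13 from 805 ± 43.6 to 1429 ± 35.8 (log2 0.83). Plaur, the urokinase receptor, rose by 0.52 and Hmox1, heme oxygenase, by 0.85. Mmp9, gelatinase B, fell from 183 ± 28.4 to 48.1 ± 15.9 (log2 -1.94, limma's adjusted p = 2.88e-06). Spp1, osteopontin, fell by 0.38, and with quantile normalization it was -0.13 and did not pass (adjusted p = 0.0887).

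Of 15 genes that act in the decay of AU-rich RNAs, 3 rose and 2 fell, 33.3% called beside 21.5% of all genes and 26.2% of those with a mean of at least 100 (median log2 -0.01). Zfp36, whose protein tristetraprolin binds such elements, had 3881 ± 162 and 3821 ± 221 normalized counts (log2 -0.02, limma's adjusted p = 0.78). Zfp36l1, its paralog, fell from 1020 ± 50.8 to 765 ± 48.8 (log2 -0.42, limma's adjusted p = 9.69e-05). Cnot1, the scaffold of the deadenylase complex, fell by 0.20, and Cnot6l, one of its nucleases, rose by 0.20. Hnrnpd (AUF1) rose by 0.14, a call lost without wild-type replicate 3 (adjusted p = 0.067).

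The redox partners of AP-1 were split. Apex1, which reduces Fos and Jun, had 1004, 934 and 964 normalized counts in wild type, against 932, 831 and 825 in libraries labelled Txn1 KO. The log2 difference of -0.17 did not pass (limma's adjusted p = 0.0614) but did without Txn1 KO library 1 (-0.22, adjusted p = 0.0212). Txnrd1, the reductase of thioredoxin-1, rose from 9649 ± 152 to 15894 ± 194 (log2 0.72), as did Prdx1, a peroxiredoxin (0.96), while Txnip, which binds thioredoxin-1, fell by 0.32. All 12 listed NRF2 targets rose, a list drawn up with their rise already known. They were led by the glutathione genes Gsta3 (log2 2.37) and Gclm (1.55), with Gclc at 1.19, the catalase gene Cat at 1.10 and Gsr at 1.08.

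Heat shock genes, which handling stress can raise, were higher for 5 of 12 and lower for 0 (limma; 1 lower at an unadjusted p under 0.05, and 0 by edgeR), beside 11.5% and 9.97% of all genes. Hspa1a, an inducible HSP70 gene, had 116, 109 and 125 normalized counts in wild type, against 225, 247 and 218 in libraries labelled Txn1 KO (log2 0.97, limma's adjusted p = 1.08e-05). Hspa1b, its near-identical copy that can share its reads, rose by 0.67 (limma's adjusted p = 0.0452), a call lost in 4 of 6 fits without 1 library (highest adjusted p = 0.22, without wild-type replicate 3). Hsp90aa1, Hsp90ab1 and Hsph1, chaperones of the same response, each rose by 0.25. Their part in the differences of the 10 genes was not tested.

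As a description of likeness, Pearson's r over the 6 libraries was computed between each of 4 genes and 11131 others with a mean of at least 50 normalized counts. The closest to Fos was Noa1 (r = 0.97), to Egr1 Zdhhc4 and Ift52 (0.98 each) and to Myc Pacsin3 (0.99). Next to Fos stood Pom121 (0.96) and Dcaf17 (0.95), next to Egr1 Ythdc1 (0.98) and next to Myc Eif1ad (0.99) and Gins3 (0.98). For Jun, whose groups did not overlap, 215 genes had an r over 0.95, led by Slc7a7, Pitpna and Rab19. For Fos, Egr1 and Myc there were 4, 13 and 12 such genes. These 6 libraries share their groups, and r over so few points is high for some genes among so many.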

How the data were processed

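RNA of 6 libraries was measured. The submitters' processing notes list STAR 2.5.2b, Trimmomatic 0.36, bcl2fastq 2.20, DESeq2 with no version, and the build GRCm38 (mm10). For read counter, strand setting and annotation a name was not given in the sources used here. Each deposited signal is a normalized count, in which the authors scaled each library's counts by a size factor: 100% of values were whole multiples of 1 read (tolerance 0.01 reads), worth 0.777 to 1.35 normalized counts. The deposited log2 fold changes and p-values are the authors' own. The columns matched to wild type carry BMDM and a number, with no genotype.

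Computed here: limma 3.58.1 (R 4.3.3, trended prior) on log2(normalized count + 1) over 13977 genes (28 with a mean under 10 were left out). SE, intervals (95%) and adjusted p come from that fit; folds are ratios of means. Levels per kb use the union of GENCODE M21 exons. Counting error limits low genes: 3 reads are 2.33 to 4.04 normalized counts. Alternatives were edgeR 4.0.16, DESeq2 1.42.0 and limma-voom (added after seeing the data) on the recovered reads, other scalings, filters, pseudocounts, priors and thresholds, the replicate number as a block, and leaving out libraries. edgeR called 1580 genes higher and 1389 lower. Within groups, libraries varied beyond sampling noise, with chi-square over degrees of freedom from 6.08 to 29.0. The code was tested on simulated libraries.

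The 10 genes and all lists were chosen with earlier results of these data known. All 10 are named; from each other list up to 6 called genes with the smallest p, or 2 where none is called, and fixed relatives (Fosl1, Fosl2, Atf3, Egr2, Egr3, Ier5, Dusp2, Dusp4, Dusp5, Dusp6, Max, Srf, Zfp36), Txn1, Txnrd1, Apex1 and Lyz2. Mycl, on that list too, was not analysed here, and 1 gene that the rule names is not reported here. Csf1r, Adgre1, Fcgr1, Cd14, C1qa, Mrc1, Marco, Mertk, Itgam, Csf3r, S100a8, Itgax, Ccr7, Zbtb46, Flt3, Xcr1, Alb, Xist, Prdx2 and Junos were named after their values were seen.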

Additional observations from a re-analysis of the deposited data

How the results depend on the processing

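Over 22 alternatives, 201 of 219 log2 changes of the 10 genes kept their direction and side of the threshold, 9 lost a call, 1 gained one (Jun, at an adjusted p under 0.1) and 8 turned sign. Without a trended prior, 1 of the 10 rose (Dusp1) and 0 fell (limma; 2 at an unadjusted p under 0.05, and 2 by edgeR and by DESeq2 after adjustment), 3 of the 50 other immediate early genes fell, and 923 genes rose and 602 fell in all. At an adjusted p under 0.01, 1024 rose and 809 fell. Leaving out each library in turn gave 1197 to 1516 genes higher and 891 to 1304 lower in all, 2 to 3 of the 10 higher and 1 to 2 lower (1 without wild-type replicate 3 and 1 without Txn1 KO library 1), and 13 to 16 of the 50 higher and 4 to 6 lower. The sign turned for 2 genes that did not pass. Egr1 was -0.036 without wild-type replicate 1, -0.021 without Txn1 KO library 3 and -0.11 without both libraries with liver transcripts, and ranged from -0.036 to 0.16 over single libraries left out. Fos was -0.012 without wild-type replicate 1, -0.016 without wild-type replicate 2, -0.019 without Txn1 KO library 2, -0.014 without both libraries with liver transcripts and -0.0051 with quantile normalization, with a range of -0.019 to 0.061 over single libraries. The cause was not tested.

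The replicate numbers did not pair the libraries: same-numbered libraries deviated together with r of -0.27, 0.14 and -0.33. The highest r between the groups was 0.43, for wild-type replicate 1 with Txn1 KO library 3, the 2 with liver transcripts. With the number as a block, 3 of the 10 rose and 2 fell, and 1433 genes rose and 1242 fell in all.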
